A study of Mus musculus with 18 samples.

Results

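This comparison follows trimethylation of histone H3 at lysine 27 (H3K27me3) in the medial ganglionic eminence (MGE) of wild-type mouse embryos from embryonic stage E12.5 to E15.5. It uses 6 libraries, 3 WT at E12.5 and 3 WT at E15.5, of the 12 libraries with an interval list and the 18 samples of the series. The study profiled this mark by bulk CUT&Tag, in which an antibody directs a transposase to marked chromatin, in embryos with and without the methyltransferase gene Ezh2. All embryos came from 1 type of cross, between Nkx2.1-Cre C/C; Ezh2 F/+ males and Ai9 F/F; Ezh2 F/+ females. Every embryo therefore carries Nkx2.1-Cre C/+ and the Cre-dependent tdTomato reporter Ai9 F/+, WT embryos included. WT embryos keep Ezh2, and the KO embryos used below for comparison lose it where Nkx2.1-Cre acts, so that tissue outside the Cre lineage keeps the gene. At E12.5 the whole MGE was taken, whereas at E15.5 only the Tom+ MGE was taken under a fluorescent dissecting microscope. MGEs of embryos of 1 genotype were combined where applicable. Stage and dissection therefore change together and cannot be told apart. The labels number the libraries as biological replicates without naming litters or embryos, so p-values measure the spread between these libraries.

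H3K27me3 is deposited by Polycomb repressive complex 2, whose catalytic subunit is Ezh2, and marks genes that are held silent, often over broad domains around CpG-rich starts. The MGE is a ventral forebrain germinal zone that makes cortical and striatal GABAergic interneurons and some projection and cholinergic neurons. Its progenitors are patterned by Nkx2-1 and its young neurons by Lhx6, while genes of other body regions and cell types stay under Polycomb. In bulk tissue, a lower level can come from fewer cells that carry the mark or from less mark per cell, and these cannot be told apart. A level of this mark is also no measure of a gene's expression.

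Intervals of the 6 lists were merged into 12792 autosomal regions, of which 2570 (20.1%) had an interval in all 6 libraries and were tested. These held between 91.8% and 97.8% of each library's autosomal counts. The libraries differed in depth: the mean count per 200 bp of genome ran from 0.117 to 0.698 at E12.5 and from 0.0751 to 0.15 at E15.5. E12.5 replicates 2 and 3 were the deep ones, and E12.5 replicate 1, at 0.117, lay within the E15.5 range. The median stretch covered by intervals inside a tested region ran from 5600 to 10600 bp at E12.5 and from 4200 to 7000 bp at E15.5. All values below are depth-scaled counts, the count in a region divided by the library's depth and multiplied by the mean depth of the 6 libraries. Log2 values correlated at r between 0.973 and 0.993 within a stage and between 0.922 and 0.945 across stages, as a description across regions.

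In edgeR more regions lost the mark than gained it, while DESeq2 gave 421 lost and 476 gained. DESeq2 used its own scaling of the libraries and not the recovered depth, so program and scaling change together there. With depth scaling, 1128 regions were lost at E15.5 (43.9% of those tested) and 97 were gained (3.77%), by edgeR's quasi-likelihood test at an adjusted p below 0.05, and the median log2 change over all 2570 regions was -0.59. TMM factors, which centre the libraries on each other, moved the median to -0.09 and gave 570 lost (22.2%) and 417 gained (16.2%). The gains were thus 7.92% of calls with depth scaling and 42.2% with TMM. A change is called firm below where both scalings called it in 1 direction and the depth-scaled values of the stages did not overlap. By this rule 565 regions were lost (22.0%) and 90 gained (3.5%). These lie close to the 570 lost with TMM and the 97 gained with depth scaling, the smaller count in each direction. The balance of firm losses and gains thus follows from the rule and does not settle which scaling holds. Without regard to the tests, all E15.5 values lay below all E12.5 values in 1318 regions (51.3%) and above them in 137 (5.33%). Without E12.5 replicate 3 the firm counts were 356 lost and 50 gained, and without E15.5 replicate 2 the firm gained count was 58. Against E12.5 replicate 1 alone, the library of similar depth, the median log2 change over all 2570 regions was -0.26. The firm rule already places every E15.5 value beyond that replicate, so the sign of firm regions could not change there. With counts taken per covered kb, 526 of the 565 firm losses and all 90 firm gains kept their sign, and 113 and 35 were called.

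**Figure D1:**
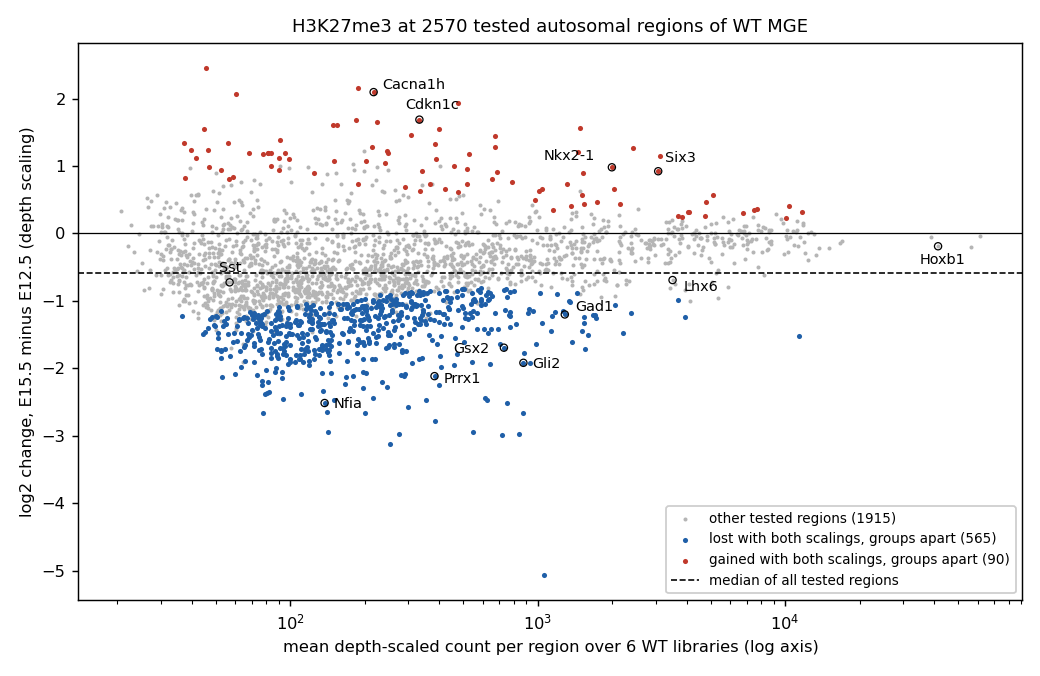
Log2 change of the depth-scaled count from E12.5 to E15.5 (y axis) against the mean depth-scaled count over the 6 WT libraries (x axis, log scale) for each of the 2570 tested regions. Red points are the 90 firmly gained regions, blue points the 565 firmly lost ones, and the dashed line is the median of -0.59, which lies below 0. Circles mark the strongest region of the named gene, except for Gli2, where it is a gene-body region.

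Firmly gained regions were longer than the others, and covered length fell most in firmly lost ones. The median length was 18.7 kb for firmly gained, 11.4 kb for firmly lost and 11.0 kb for the other tested regions. The length covered by intervals hardly changed in the gained regions, with a median log2 ratio of 0.06, while it fell by 0.78 in the lost ones and by 0.37 in the others. Counts are summed over this covered length, so the 2 measures are coupled, and covered length also rose with library depth. The fall in length is therefore no separate result. A protein-coding gene start lay inside 45.6% of gained, 51.5% of lost and 58.8% of other regions. Gene promoters in these 3 classes held a median of 19.5, 18 and 20 CG dinucleotides in 300 bases, against 14 over 20085 autosomal promoters. The classes therefore lay close to each other in CG content and above the genome.

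Genes that pattern or mark the ventral forebrain moved in opposite directions. Nkx2-1, the factor that specifies the MGE, and Six3, an anterior forebrain factor, gained the mark, while Gsx2, which specifies the neighbouring lateral eminence and is also used in MGE progenitors, and Gad1, which encodes a GABA-synthesising enzyme, lost it. The starts of these 4 genes lay inside the changed regions and were covered by an interval in all 6 libraries. Their promoters are shown because the change spans them; they are RefSeq sequences of GRCm38.p6 from 250 bases before to 50 after the start, 5′ to 3′ on the gene's strand, with every CG in capitals. CG reads the same on both strands, and 95.6% of the 20085 promoters hold at least 1.
Nkx2-1, chr12:56536859-56537158, minus strand: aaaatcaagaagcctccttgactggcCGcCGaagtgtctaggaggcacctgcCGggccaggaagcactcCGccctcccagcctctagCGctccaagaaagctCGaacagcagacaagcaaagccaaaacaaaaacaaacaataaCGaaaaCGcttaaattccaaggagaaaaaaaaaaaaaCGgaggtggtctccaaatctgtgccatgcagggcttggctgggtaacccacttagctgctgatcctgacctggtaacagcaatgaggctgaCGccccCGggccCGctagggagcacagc
Six3, chr17:85620584-85620883, plus strand: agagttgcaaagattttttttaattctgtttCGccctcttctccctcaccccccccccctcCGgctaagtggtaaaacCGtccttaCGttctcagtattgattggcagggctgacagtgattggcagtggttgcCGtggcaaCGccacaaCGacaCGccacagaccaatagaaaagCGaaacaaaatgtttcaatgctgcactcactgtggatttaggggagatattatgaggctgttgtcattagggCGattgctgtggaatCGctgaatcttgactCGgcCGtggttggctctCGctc
Gsx2, chr5:75075351-75075650, plus strand: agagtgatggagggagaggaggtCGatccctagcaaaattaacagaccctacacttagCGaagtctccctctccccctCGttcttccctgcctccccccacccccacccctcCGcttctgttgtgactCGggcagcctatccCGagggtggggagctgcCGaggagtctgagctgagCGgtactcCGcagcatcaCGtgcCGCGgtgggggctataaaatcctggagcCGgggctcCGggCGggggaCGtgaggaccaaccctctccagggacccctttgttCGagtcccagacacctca
Gad1, chr2:70561879-70562178, plus strand: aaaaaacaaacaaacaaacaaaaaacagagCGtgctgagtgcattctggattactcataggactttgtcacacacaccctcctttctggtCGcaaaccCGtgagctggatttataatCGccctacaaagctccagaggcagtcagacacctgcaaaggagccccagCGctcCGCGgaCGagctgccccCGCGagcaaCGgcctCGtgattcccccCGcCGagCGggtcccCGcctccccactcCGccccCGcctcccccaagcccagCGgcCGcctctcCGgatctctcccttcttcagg
The gained Nkx2-1 and Six3 promoters hold 12 and 14 CG, the lost Gsx2 and Gad1 promoters 17 and 21. As many CG or more stand in 54.1% of all promoters for Nkx2-1, 50.2% for Six3, 43.9% for Gsx2 and 34.8% for Gad1, so none of the 4 is unusual in this respect.

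Nkx2-1 lies in a region of 42000 bp at chr12:56502801-56544800. Its depth-scaled counts were 1110, 1738 and 1153 in E12.5 replicates 1 to 3 and 4039, 1910 and 2026 in E15.5 replicates 1 to 3. The stages did not overlap, but E15.5 replicate 1 stood far above the others and the remaining gap was narrow. The log2 change was 0.98 ± 0.25 SE, with an edgeR adjusted p of 0.00717 (1.52 with TMM). It missed the threshold in edgeR when counts were taken per covered kb (edgeR adjusted p = 0.083), among regions called in at least 4 libraries (edgeR adjusted p = 0.0607) and against E12.5 replicate 1 alone (edgeR adjusted p = 0.054). Without E15.5 replicate 1 the change was 0.56 and stayed called (edgeR adjusted p = 0.0221). Both stages carry the Nkx2.1-Cre allele, which is named for this gene.

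Six3 (chr17:85600801-85634600) rose more evenly, from 1996, 2406 and 1955 to 4146, 3688 and 4238 (log2 change 0.92 ± 0.11 SE; edgeR adjusted p = 5.16e-05). Fezf1, a forebrain zinc-finger repressor gene that shares its region chr6:23238601-23282800 with part of Cadps2, rose from 1682, 2294 and 1849 to 4032, 4178 and 4775 (log2 change 1.15 ± 0.12 SE; edgeR adjusted p = 2.16e-05). In both genes every E15.5 library lay above every E12.5 library by more than the spread within a stage. Gsx2 (chr5:75062801-75089000) fell from 1046, 1336 and 983 to 194, 240 and 585, with E15.5 replicate 3 the highest of its stage (log2 change -1.69 ± 0.31 SE; edgeR adjusted p = 0.00128).

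Among 23 tested MGE progenitor and patterning factors, of 28 listed, 4 were gained and 11 lost with depth scaling, where 2.78% of all 2873 genes with a tested region were gained and 43.9% lost. A gene is judged by the region over its body or within 2500 bp that has the highest mean count, called its strongest region. Over all genes 2.58% were firmly gained and 18.4% firmly lost. Firm calls in this list were Nkx2-1, Six3, Fezf1 and Otx1 gained, and Gsx2 lost, with a median log2 change of -0.60 beside -0.52 over all genes. With TMM the balance of the list turned, to 8 gained and 1 lost, where 15.1% of all genes were gained and 18.4% lost. Otx1, a forebrain and midbrain homeobox gene, rose by 0.47 on the log2 scale. The paired Dlx genes, which drive GABAergic differentiation, were lost with depth scaling: the region of Dlx1 and Dlx2 changed by -0.93 and that of Dlx5 and Dlx6 by -1.0, with edgeR adjusted p-values of 0.00041 and 4.77e-05. With TMM they changed by -0.48 and -0.55 and missed the threshold (edgeR adjusted p = 0.0778 and 0.0765). Olig2, a progenitor and oligodendrocyte factor, was at -0.79 with depth scaling (edgeR adjusted p = 0.00353) and -0.32 with TMM (edgeR adjusted p = 0.128).

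Factors of postmitotic MGE neurons also moved both ways. Of 19 tested genes, of 32 listed, 5 were gained and 7 lost with depth scaling (2.78% and 43.9% of all genes), with a median of -0.09, and 10 were gained and 2 lost with TMM (15.1% and 18.4%). The firm gains were all members of the Gbx and Zic families, transcription factors of early brain patterning: Gbx1, Gbx2, Zic1 and Zic4, which share a region, and Zic2. Gbx1 (chr5:24511601-24542000) held 1070, 1439 and 1127 at E12.5 and 1707, 1812 and 1899 at E15.5 (log2 change 0.57 ± 0.13 SE; edgeR adjusted p = 0.00481). Gbx2 rose by 0.41, the Zic1 and Zic4 region by 0.32 and Zic2 by 0.23 on the log2 scale, so these are small shifts at strongly marked loci. Zic2 sat near the threshold (edgeR adjusted p = 0.0438) and lost its call without any 1 of E12.5 replicates 2 and 3 and the E15.5 replicates, and the Zic1 and Zic4 region lost it without E12.5 replicate 2.

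Nfix, a nuclear factor I gene active as neurons mature, lost the mark over a region of 125800 bp at chr8:84693401-84819200 that also holds Trmt1, Lyl1 and Dand5. The counts fell from 20523, 14991 and 15348 to 6299, 5828 and 5601 (log2 change -1.52 ± 0.12 SE; edgeR adjusted p = 2.32e-06). The lowest E12.5 value was over the highest E15.5 value by more than the spread within either stage. Sp9, which acts in immature striatal and MGE neurons, fell by 0.88. Lhx6, the factor of MGE-derived interneurons, held 4509, 4231 and 4262 at E12.5 and 2871, 2514 and 2672 at E15.5, which gave a log2 change of -0.69 with depth scaling (edgeR adjusted p = 0.000156) but -0.22 with TMM (edgeR adjusted p = 0.36). Lhx8, used in cholinergic neurons, changed by 0.20 (edgeR adjusted p = 0.154) with depth scaling and by 0.69 with TMM (edgeR adjusted p = 0.0019). Neither Lhx gene was called under both scalings.

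The genes of GABA synthesis lost the mark. Gad1 (chr2:70558001-70574800) fell from 1858, 1726 and 1809 to 692, 776 and 868, and Gad2 (chr2:22616601-22629000), the other glutamate decarboxylase gene, from 490, 589 and 588 to 220, 219 and 303. The values within a stage were close together and the stages did not overlap. The log2 changes were -1.20 ± 0.13 and -1.16 ± 0.21 (SE, with edgeR adjusted p = 2.39e-05 and 0.00104), and both genes stayed called in each of the 14 alternatives. Slc32a1, the vesicular GABA transporter gene, changed by -0.84 with depth scaling (edgeR adjusted p = 0.0006) and by -0.37 with TMM (edgeR adjusted p = 0.053). Of 17 tested interneuron peptide, receptor and GABA genes, of 38 listed, 8 were lost and 1 gained with depth scaling, with a median of -0.56, a share of losses (47.1%) near the 43.9% of all genes. With TMM 4 were lost and 4 gained, where 18.4% and 15.1% of all genes were. Firm losses besides Gad1 and Gad2 were Kcnc1, a fast potassium channel gene of interneurons (-1.53), and Crhbp, which encodes a binding protein for corticotropin-releasing hormone (-1.29). Nrp2, a semaphorin receptor gene in interneuron migration, was the gain (0.49), and it lost its call without E12.5 replicate 3 or without E15.5 replicate 2. Sst, the somatostatin gene, held 58.6, 79.2 and 76.1 at E12.5 and 29.3, 48.9 and 49.6 at E15.5. Its difference of -0.73 missed the threshold (edgeR adjusted p = 0.0672), although the stages did not overlap.

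**Figure D2:**
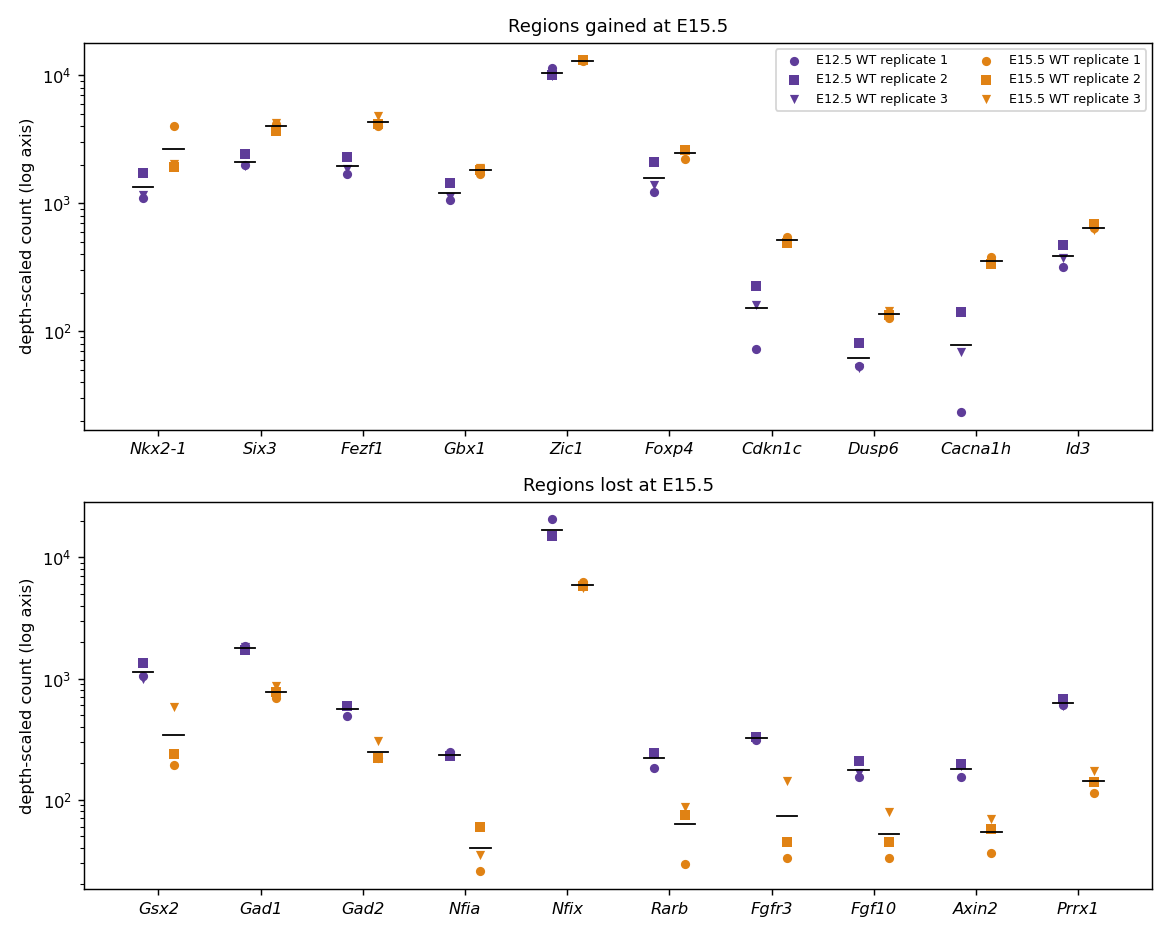
Depth-scaled counts (y axis, log scale) in each of the 6 WT libraries for 10 gained genes (top) and 10 lost genes (bottom). Purple is E12.5, orange E15.5, symbols are replicates 1 to 3 and bars are stage means. In all 20 genes the orange points lie wholly above or wholly below the purple ones, and E12.5 replicate 1 is the lowest library at Cdkn1c and Cacna1h.

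Genes of neighbouring territories also moved both ways. In the list of lateral and caudal eminence factors, 23 of 24 genes were tested, 3 were gained and 8 lost with depth scaling (2.78% and 43.9% of all genes), with a median of -0.04. With TMM 7 were gained and 3 lost, where 15.1% and 18.4% of all genes were. Foxp4, a forkhead gene, rose from 1215, 2087 and 1389 to 2223, 2627 and 2621 (log2 change 0.67 ± 0.17 SE; edgeR adjusted p = 0.00734), where E12.5 replicate 2 reached close to the E15.5 values. Zfp503, a zinc-finger gene of the striatum, rose by 0.57 and Sp8, a factor of the dorsal lateral and the caudal eminence, by 0.32. Rarb, a retinoic acid receptor gene of the striatum, fell from 183, 243 and 238 to 29.3, 74.4 and 86.3 (log2 change -1.75 ± 0.36 SE; edgeR adjusted p = 0.00238). Meis2 fell by 1.27 and Ikzf1 by 1.19, both factors of striatal projection neurons. Prox1, a caudal eminence factor, changed by 0.29 (edgeR adjusted p = 0.104).

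Few dorsal and posterior fate genes were called with depth scaling. Of 32 tested pallial glutamatergic factors, 2 were gained and 5 lost, and of 63 tested midbrain, hindbrain and spinal cord factors, 1 was gained and 10 lost, against 2.78% and 43.9% over all genes. With TMM the same lists had 10 gained and 0 lost, and 10 gained and 2 lost, where 15.1% and 18.4% of all genes were, so the direction of their calls follows the scaling. The depth-scaled change also varied with region length. Over all tested regions the median was -0.47 up to 5 kb, -0.72 from 5 to 10 kb and -0.61 from 10 to 20 kb. It was -0.31 from 20 to 50 kb and -0.16 over 50 kb. Against E12.5 replicate 1 alone the medians, in the same order, were -0.13, -0.33, -0.26, -0.20 and -0.30. Regions over 50 kb were thus no longer nearest to 0 there. No gene list was matched for length, and the part of length in the list shares was not tested. The pallial list had 10 genes with an unadjusted p under 0.05 in edgeR with depth scaling, and DESeq2 called 15 gained and 0 lost. Emx1, a dorsal pallium factor, held 4947, 4309 and 4045 at E12.5 and 4600, 4063 and 4300 at E15.5. Pax6 held 15921, 11465 and 11911, then 13198, 12937 and 13083. Both overlapped between stages, at -0.04 and -0.00 with depth scaling and at 0.43 and 0.45 with TMM, none of them called at an adjusted p below 0.05. The firm pallial gains were Lhx5, at 0.34, whose call was lost without E12.5 replicate 2 or 3 or without E15.5 replicate 1, and Tle4, a Groucho corepressor gene of deep cortical layers, at 1.19. Tle4 rose from 28.1, 64.6 and 56.1 to 73.2, 140 and 138 (edgeR adjusted p = 0.0177), and lost its call without E12.5 replicate 3 or without E15.5 replicate 2. Shox2 rose by 0.24, a call that was lost without any 1 library other than E12.5 replicate 1. Ptf1a, a GABAergic factor of the cerebellum and spinal cord, changed by -0.99 and Dbx2 by -0.96, both firm losses.

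All 39 Hox genes lay in 5 regions, and with depth scaling Hoxb13 was called lost, at -0.39, while 0 were gained. edgeR with TMM and DESeq2 called 0 in either direction, and Hoxb13 was the 1 gene with an unadjusted p below 0.05 in edgeR with depth scaling. The Hoxd cluster, chr2:74637401-74770800, held 47573, 35144 and 35482 at E12.5 and 40829, 37436 and 36075 at E15.5, so the stages overlapped. The log2 changes of 3 cluster regions were -0.19 for Hoxb, -0.20 for Hoxc and -0.05 for Hoxd. With TMM these values were 0.26, 0.25 and 0.41, so their sign follows the scaling. Against E12.5 replicate 1 alone, the library of similar depth, the median over the Hox genes was -0.35, beside -0.27 over all genes. The place of the Hox genes relative to all genes thus also depends on the E12.5 libraries used.

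Of 80 tested mesoderm, endoderm and other non-neural factors, 3 were gained and 22 lost (27.5%, beside 43.9% of all genes) with depth scaling, with a median of -0.13. With TMM the balance turned, to 18 gained and 5 lost, where 15.1% and 18.4% of all genes were. Prrx1, a mesenchymal homeobox gene, had the largest firm loss of the list: chr1:163305401-163319200 fell from 608, 672 and 593 to 114, 140 and 173 (log2 change -2.12 ± 0.21 SE; edgeR adjusted p = 1.53e-05). Meox2 fell by 1.64, Foxi2 by 1.04, Twist2 by 0.98 and Myod1 by 0.95, genes of mesoderm, epidermis, dermis and muscle. Sall4, a pluripotency-associated zinc-finger gene, rose by 0.82, Lef1, a mediator of Wnt signalling, by 0.46 and Six2, a kidney and head mesenchyme factor, by 0.30. The call of Six2 was lost without E12.5 replicate 2 or 3 or without E15.5 replicate 1 or 3. Six2 lies beside Six3 on chromosome 17 in a region of its own.

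Signalling genes were mostly lost with depth scaling. Of 61 tested Sonic hedgehog, FGF, BMP and Wnt pathway genes, of 83 listed, 34 were lost (55.7%, beside 43.9% of all genes) and 1 gained, with a median of -0.55 beside -0.52, and 15 of the losses were firm, where 18.4% of all genes were firm losses. With TMM 15 were lost and 10 gained, where 18.4% and 15.1% of all genes were. The firm losses comprised the hedgehog coreceptor gene Boc and the FGF genes Fgf10, Fgf11, Fgf18 and Fgfr3. The others were the BMP and activin genes Bmp2, Bmp3, Bmp8a, Gdf10 and Inhbb, and the Wnt genes Wnt2, Dkk1, Rspo2, Axin2 and Lgr6. Fgfr3, a receptor gene of ventricular progenitors and astrocytes, fell from 312, 329 and 325 to 33, 44.7 and 143 (log2 change -2.06 ± 0.42 SE; edgeR adjusted p = 0.00211). E15.5 replicate 3 again stood highest in its stage. Fgf18, at -1.23, lost its call without E12.5 replicate 3. Fgf10 fell from 155, 210 and 165 to 33, 44.7 and 78.9 (-1.72 ± 0.36 SE), and Axin2, a feedback inhibitor induced by Wnt signalling, from 152, 195 and 189 to 36.6, 57.4 and 69.7 (-1.68 ± 0.33 SE). Boc fell from 1149, 1650 and 1698 to 359, 570 and 510 (-1.64 ± 0.19 SE; edgeR adjusted p = 5.26e-05). Dusp6, the phosphatase gene that answers FGF signalling, was the gain: it rose from 54, 81.9 and 51.5 to 128, 134 and 145 (1.10 ± 0.32 SE; edgeR adjusted p = 0.0131) and lost its call without E12.5 replicate 3.

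Some genes were named for a region other than their strongest. Of the 30 list genes named by size of change, 9 were named for a region that was not their strongest. Gli2, a transcriptional effector of hedgehog signalling, lost the mark over 51200 bp of its gene body at chr1:118888601-118939800, from 976, 1538 and 1648 to 289, 396 and 411 (log2 change -1.92 ± 0.21 SE; edgeR adjusted p = 2.57e-05). Its strongest region, chr1:119025401-119067400, which holds its start, changed by -0.21 (edgeR adjusted p = 0.22). Ebf3 changed by -1.87 in a second region of 23400 bp, with its strongest region at -0.07 (edgeR adjusted p = 0.481). Grik3, a kainate receptor subunit gene, and Syt2, a synaptotagmin gene, changed by -1.80 and -1.65 in second regions and by -0.21 and -0.33 in their strongest ones, neither of which was called. The second regions of Wnt3, Flt4 and Esam changed by -2.05, -1.73 and -2.3, and the strongest regions of these genes by -0.69, -0.76 and -0.88 with depth scaling; all 3 of these were called lost, that of Esam firmly. Per covered kb, the second regions of Grik3 and Wnt3 changed by 0.33 and 0.17, which reverses the sign, and neither was called.

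Glial and cell cycle genes each showed a gain beside a loss. Nfia, a gliogenic factor that acts from the onset of astrocyte production, fell from 246, 231 and 230 to 25.6, 59.6 and 34.9 at chr4:97748801-97759800 (log2 change -2.51 ± 0.35 SE; edgeR adjusted p = 0.000191). This region did not include its start, which had an interval in 0 libraries of either stage. Id3, an inhibitor of basic helix-loop-helix factors, rose from 319, 470 and 372 to 637, 685 and 617 (0.73 ± 0.19 SE; edgeR adjusted p = 0.00733). These were 2 of only 6 tested glial genes, of 30 listed. Among 9 tested cell cycle regulators 1 was gained and 4 lost (44.4%) with depth scaling, where 2.78% and 43.9% of all genes were, so the share of losses was near that of all genes. With TMM 3 were gained and 1 lost, where 15.1% and 18.4% of all genes were. The CDK inhibitor gene Cdkn1c was gained, as described below, and the CDK inhibitor gene Cdkn2c fell from 2320, 2027 and 2129 to 853, 1002 and 894 (-1.23 ± 0.12 SE; edgeR adjusted p = 1.2e-05).

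Of 47 tested neuronal excitability and synapse genes, of 90 listed, 3 were gained and 13 lost (27.7%, beside 43.9% of all genes) with depth scaling, with a median of -0.47. With TMM the balance turned, to 10 gained and 3 lost, where 15.1% and 18.4% of all genes were. Cacna1h, a T-type calcium channel gene, rose from 23.5, 142 and 68.7 to 381, 336 and 354 at chr17:25394401-25416000 (log2 change 2.1 ± 0.43 SE; edgeR adjusted p = 0.00222). E12.5 libraries differed widely here, and the lowest was the shallow replicate 1, with an unscaled count of 10, yet the stages did not overlap. Lingo1, a leucine-rich repeat gene of neurons, rose in a region of 85600 bp from 959, 1910 and 1388 to 3073, 3439 and 3848 (1.27 ± 0.19 SE; edgeR adjusted p = 0.000311), and again in a second region of 17400 bp. Gabbr2, a GABA-B receptor subunit gene, rose by 1.23 in a gene-body region, with its strongest region at -0.39 (edgeR adjusted p = 0.0923). Nptx1, a pentraxin gene of synapses, rose by 0.43 and lost its call without E12.5 replicate 3 or E15.5 replicate 2. Firm losses were Kcns2 at -1.61, Gabra5 at -1.23 and Kcnj4 at -1.01, genes of 2 potassium channel subunits and a GABA-A receptor subunit.

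**Figure D3:**
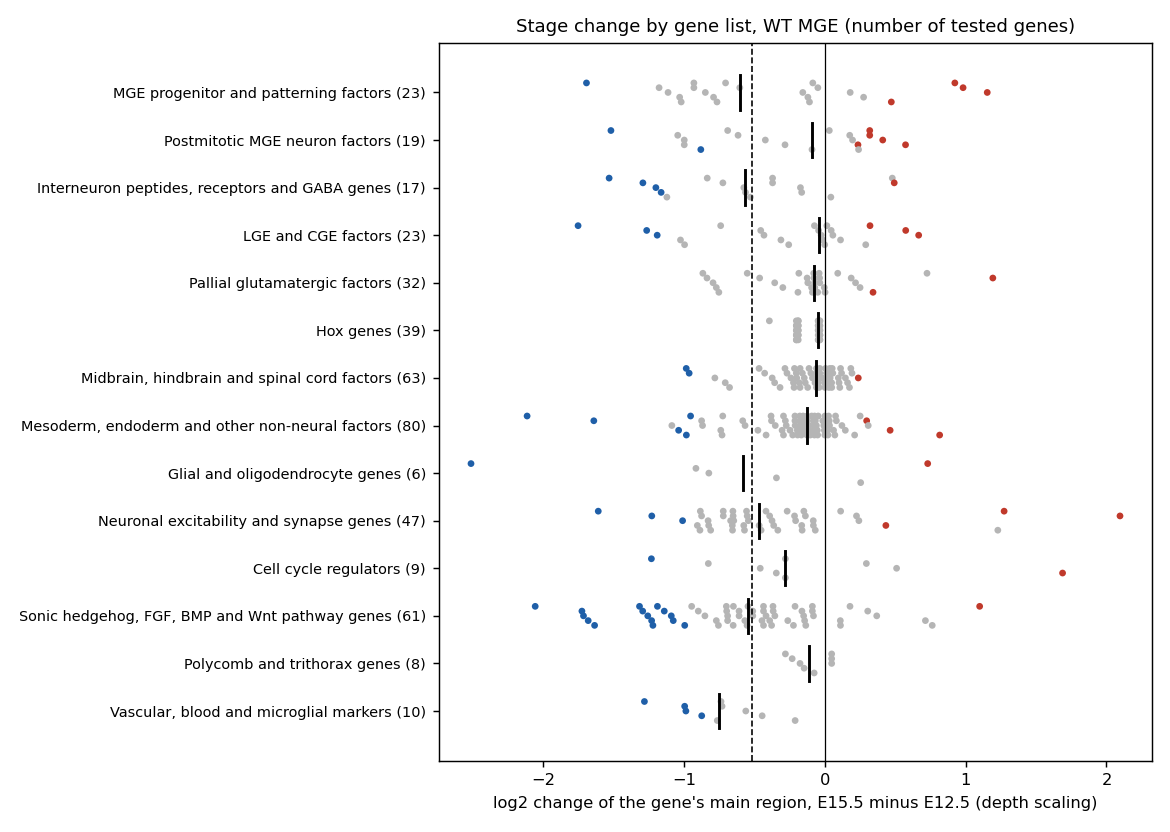
Log2 change of each tested gene's strongest region (x axis, depth scaling) by gene list, with the number of tested genes in brackets. Red is firmly gained, blue firmly lost, grey all other genes; short bars are list medians and the dashed line is the median of -0.52 over all 2873 genes. In this setting the Hox list and the midbrain, hindbrain and spinal cord list sit near 0, and the signalling list has 15 blue points and 1 red point. Against E12.5 replicate 1 alone the Hox median was -0.35, beside -0.27 over all genes.

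Markers of other cell types the dissections could hold were read as well. Of 32 vascular, blood and microglial markers, 10 had a tested region, and 7 were lost and 0 gained with depth scaling, beside 43.9% and 2.78% of all genes; DESeq2 called 1 lost and 0 gained. The summed level of their regions ran from 7530 to 8726 at E12.5 and from 5376 to 6251 at E15.5, so the stages did not overlap. With TMM 4 were lost and 0 gained, where 18.4% and 15.1% of all genes were. With depth scaling 8 markers had an unadjusted p below 0.05 in edgeR. Col1a1, Kdr, Cldn5 and Esam were firm losses, at -1.28, -1.0, -0.99 and -0.88, where 18.4% of all genes were firm losses. Pecam1, Cdh5, Csf1r and Cx3cr1 had no interval in any of the 6 libraries. The part of such cells in the other results was not tested. Of 20 housekeeping genes 0 were tested, and 5 had an interval in some libraries. Of 8 tested Polycomb and trithorax genes, edgeR called 0 under depth scaling and 0 under TMM, and with depth scaling 0 had an unadjusted p below 0.05. DESeq2 called 4 gained and 0 lost. Ezh2 itself had no interval.

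A run of gained regions lay in the imprinted domain of distal chromosome 7, from Kcnq1 to Cdkn1c. Cdkn1c is expressed from the maternal allele, and the long noncoding RNA Kcnq1ot1, made from within Kcnq1 on the paternal allele, silences genes of this domain in cis. At Cdkn1c (chr7:143452201-143471000) the counts rose from 72.7, 227 and 160 to 546, 491 and 501 (log2 change 1.69 ± 0.31 SE; edgeR adjusted p = 0.00132). Another 3 regions over Kcnq1 rose: the one at chr7:143281201-143298200, which overlaps an end of Kcnq1ot1, from 46.9, 171 and 98.5 to 355, 311 and 369 (1.65), and those at chr7:143354201-143392200 and chr7:143421601-143451400 by 1.21 and 1.28. In all 4 regions E12.5 replicate 1 was the lowest library and no value of the stages overlapped. The lower-coordinate end of Kcnq1, chr7:143098801-143113000, fell from 321, 420 and 384 to 139, 117 and 141 (-1.51 ± 0.24 SE; edgeR adjusted p = 0.000503). The files do not separate the alleles. The neighbouring Kcnq1 regions and genes were chosen after their values were seen. Ascl2, a maternally expressed gene further out, fell by 1.18. Phlda2 and Slc22a18, next to Cdkn1c, shared a region that changed by -0.46 (edgeR adjusted p = 0.0782), and Igf2 changed by -0.10 (edgeR adjusted p = 0.392).

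**Figure D4:**
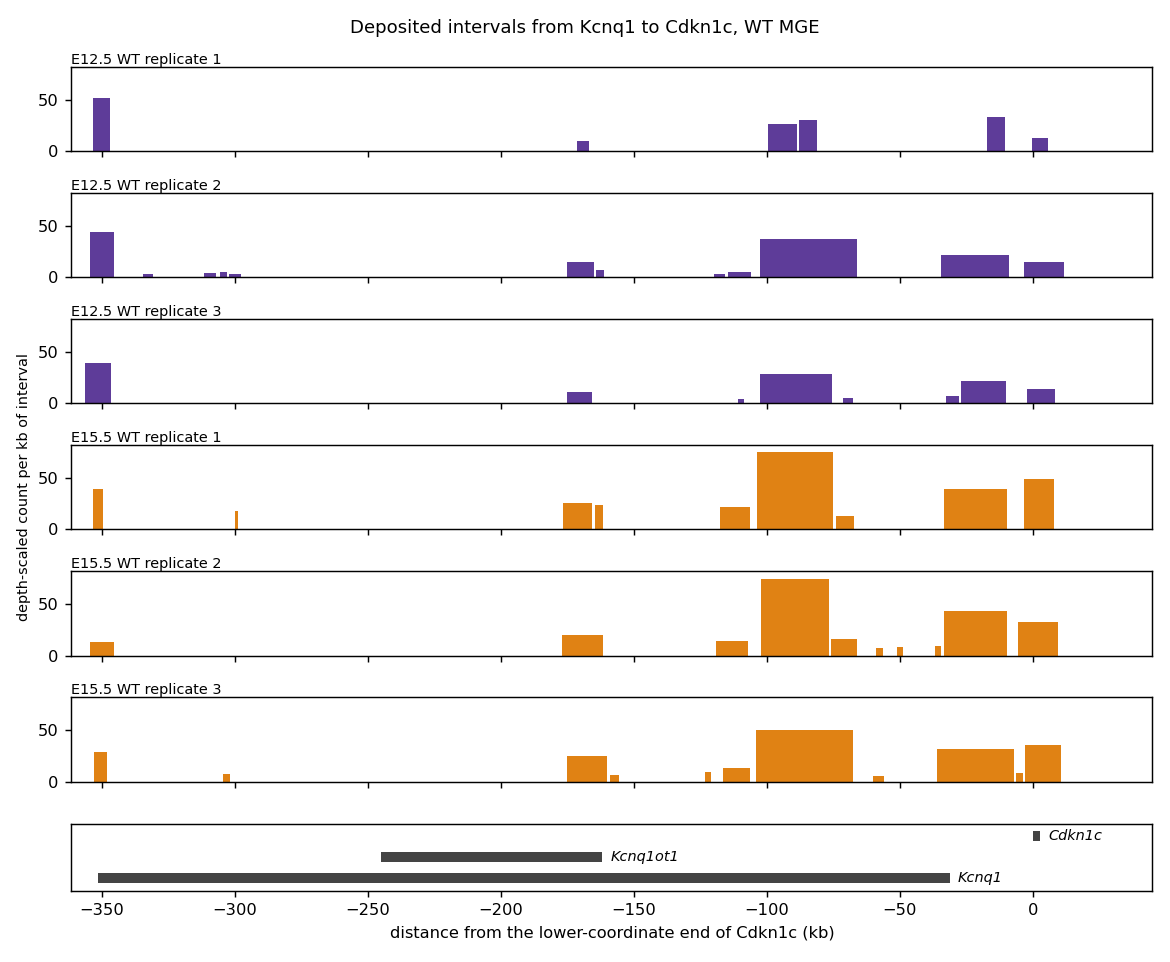
Deposited intervals in each WT library from Kcnq1 to Cdkn1c, drawn as boxes whose height is the depth-scaled count per kb of interval (y axis, same scale in every row), against the distance from the lower-coordinate end of Cdkn1c in kb (x axis). Bars in the last row are gene bodies. Purple is E12.5 and orange E15.5; the 4 gained regions between Kcnq1ot1 and Cdkn1c changed by 1.65, 1.21, 1.28 and 1.69 on the log2 scale, and the region at the left end of Kcnq1 by -1.51.

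Several large changes lay away from listed genes. The deepest loss was at chr15:85638401-85681200, a region of 42800 bp that overlaps the lncRNA gene D130051D11Rik, where 2250, 1921 and 1996 fell to 36.6, 63.8 and 75.2 (log2 change -5.06 ± 0.21 SE; edgeR adjusted p = 3.17e-09). The E15.5 libraries kept unscaled counts of 10, 30 and 41 there, against 959, 4877 and 3487 at E12.5. Bcas3 (chr11:85687801-85731800), a gene-body region with the lncRNA gene Bcas3os1, fell from 1274, 1613 and 1580 to 154, 194 and 217 (-2.97 ± 0.18 SE; edgeR adjusted p = 2.41e-07). The region of Tent4b and Adcy7 fell by 3.12, an intergenic one at chr11:4286601-4325600, 14087 bp from Lif, by 3.00, and one at chr5:33684001-33708400, 11798 bp from Tacc3, by 2.97. All 5 were called in each alternative that tested them. Nfic, the third nuclear factor I gene to be lost, fell by 2.67; it was chosen after its values were seen.

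Among the largest gains without a listed gene were an intergenic region at chr9:47350201-47371000 with the lncRNA gene Gm31816, which rose from 58.6, 86.7 and 59.5 to 260, 283 and 382 (log2 change 2.16 ± 0.30 SE; edgeR adjusted p = 0.000195), and chr6:89005801-89038800 with Gm36639, which rose by 1.93. Next was chr3:17784601-17797400, which holds Mir124-2hg and Mir124a-2, the host and hairpin of the neuronal microRNA miR-124: it rose from 51.6, 126 and 78.4 to 216, 242 and 389 (1.69 ± 0.36 SE; edgeR adjusted p = 0.00276). A pair of short regions, 1000 bp in Flt1 and 1200 bp in Pacs1, rose by 2.45 and 2.07. Their unscaled counts do not follow library depth: Flt1 had 14, 20 and 18 at E12.5 and 28, 33 and 27 at E15.5 although E12.5 replicates 2 and 3 were deeper, and Pacs1 had 16, 44 and 34, then 34, 41 and 41. Neither was called against E12.5 replicate 1 alone. The strongest region of Flt1, a vascular receptor gene, changed by -0.45.

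Some microRNA genes lay in lost regions. Of 919 autosomal hairpins in the RefSeq table, 63 lay in 51 tested regions, and 12 of them, in 9 regions, were firmly lost, beside 22.0% of all tested regions, so their share of losses was near that of all regions. Mir9-1, a source of the neural progenitor microRNA miR-9, lies at chr3:88215598-88215686 in a lost region beside Rhbg, which fell from 1872, 1639 and 1493 to 421, 432 and 962 (log2 change -1.44 ± 0.25 SE; edgeR adjusted p = 0.00102). Mir449c and Mir449a, of multiciliated cells, lie in Cdc20b and fell with it, from 514, 755 and 691 to 220, 323 and 349 (-1.13 ± 0.22 SE; edgeR adjusted p = 0.00171). The mature sequences are shown, with the seed (bases 2 to 8) in capitals, because 2 of them share a seed.
miR-9-5p: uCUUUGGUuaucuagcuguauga
miR-449a-5p: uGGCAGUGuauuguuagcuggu
miR-449c-5p: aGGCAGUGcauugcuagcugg
The other miR-9 gene that was tested, Mir9-3, lies in a region that changed by -0.68 (edgeR adjusted p = 0.295) and has the same mature sequence.

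Some regions were listed at 1 stage only. An interval was present in all 3 E12.5 libraries and in none at E15.5 at 421 regions, and the reverse held at 25. The lists give only intervals above the caller's threshold, so absence means no called interval. The longest E12.5-only region, chr9:88037801-88074000, had unscaled counts of 92, 1178 and 885 at E12.5 and lies 253609 bp from Nt5e. Others lay in Pdzrn3 and Tnfrsf19, and 11 listed genes had one, including Calb2, which encodes the interneuron marker calretinin (10, 67 and 43), Gli3 (14, 170 and 78), Boc (12, 219 and 157) and a second Nfia region (22, 160 and 101). Over all genes, 339 of the 7275 with an interval in any library had an E12.5-only region, so having one does not set the listed genes apart. E15.5-only regions lay in Thsd4, Tenm4, Klhl29 and Bahcc1 and near Cadm1, and the Tenm4 region had counts of 24, 44 and 68. Against E12.5 replicate 1 alone, whose depth was similar, the counts were 468 and 238, and without that replicate they were 2621 and 26. Both counts thus moved with the E12.5 libraries used.

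The same stage step in the 6 Ezh2 KO libraries, which the calls above did not use, gave mostly the same directions. In a fit of all 12 libraries over 2368 shared regions, the WT step had 65 gained (2.74%) and 1067 lost (45.1%). The median KO change over these 2368 regions was -0.02 with depth scaling and -0.05 with TMM. Of the 90 firmly gained regions, 69 could be read in KO: all 69 were higher at E15.5 and 61 were called gained, where 9.97% of all regions were. Of the lost ones, 554 could be read, 501 were lower at E15.5 in KO and 144 were called lost, where 8.4% of all were; 2 were called gained. With TMM, 56 and 268 were called in the same direction, beside 16.8% and 16.6% of all regions. With depth scaling the median KO change was 1.52 at the gained regions and -0.47 at the lost ones, beside 0.82 and -1.34 in WT. With TMM these medians were 1.43 and -0.48 in KO, beside 1.35 and -0.82 in WT. The larger change in KO at the gained regions thus follows the scaling. The stage change itself differed between genotypes at 158 regions (6.67%) by edgeR's interaction test with depth scaling, each with the more negative change in WT. At an unadjusted p under 0.05, 5 regions had the more positive change in WT. With TMM 51 regions differed (2.15%), 46 more negative in WT and 5 more positive, and 46 regions differed under both scalings. The median difference over all 2368 regions was itself -0.61 with depth scaling and -0.07 with TMM. DESeq2 was not run on this difference. Leaving out 1 library moved the depth-scaled count between 60, without E12.5 WT replicate 2, and 1070, without E12.5 KO replicate 3. Chromosome X, left out of all fits, held 18.1% to 24.5% of the covered bases in the E12.5 KO libraries and 0.885% to 5.33% in the E15.5 KO libraries, and its part in these results was not tested.

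Among those 46, Foxp4 rose by 0.67 in WT and by 2.54 in KO, a difference of -1.87 (edgeR adjusted p = 6.18e-07, and 0.000402 with TMM). Boc and the Ebf3 gene-body region fell in WT, by 1.64 and 1.94, and showed 0.20 and 0.41 in KO, neither called. A pair of Kcnq1 regions rose in both genotypes, and by more in KO: the one with Kcnq1ot1 by 1.64 in WT and 3.71 in KO. At Nkx2-1 the KO change was 0.43 (edgeR adjusted p = 0.106), and the difference from WT, 0.56, was not called (edgeR adjusted p = 0.145).

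**Figure D5:**
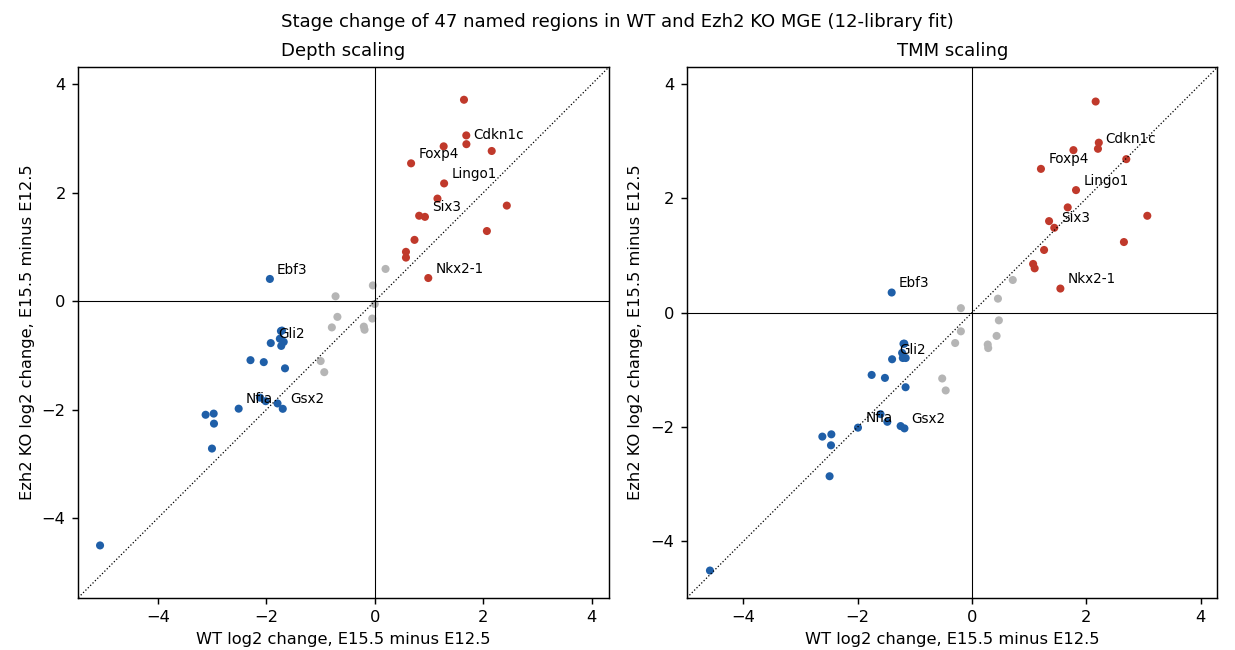
Log2 change from E12.5 to E15.5 in Ezh2 KO (y axis) against that in WT (x axis) for 47 regions named by rule that all 12 libraries share, with depth scaling (left) and TMM (right). Red regions are firmly gained and blue firmly lost in WT, grey the others; the dotted line marks equal change. The 16 red regions are above 0 in both genotypes, and Ebf3 is the blue region above 0 in KO.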

How the data were processed

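The counts are those the authors deposited: 1 interval list per library, with a whole-number count in column 4. The score in column 5 is the authors' own value per interval, as deposited. The submitters' processing notes name cutadapt, Bowtie2, SAMtools, Picard, deepTools and SICER, with no versions or roles, and the builds GRCm38 and mm10; thresholds and any control library are not given in the sources used here. Het samples were not analysed here. Each library's mean count per 200 bp was recovered from the scores of single-window intervals as the mean of a Poisson distribution. Autosomal intervals of the 6 WT lists were merged, counts were summed per region, and regions with an interval in all 6 libraries were tested with edgeR 4.0.16 (quasi-likelihood, Benjamini-Hochberg adjustment, threshold 0.05, R 4.3.3). Alternatives were TMM, DESeq2 1.42.0 with its own scaling, other filters, counts per covered kb, E12.5 replicate 1 alone, a replicate block and leaving out each library. The test, on simulated data of 2570 regions, recovered 63% of 200 regions changed 2-fold, with 5 false calls. The simulated counts had 1 common spread, no shift over all regions and no change of covered length with depth. Their false calls therefore do not measure those among the real calls. Genes are RefSeq GRCm38.p6 bodies with 2500 bp on either side. The rule for named genes took a fixed set, then up to 15 list genes and 5 further regions in each direction by size among firm changes, then up to 5 longest regions listed at 1 stage. Gsx2, Nkx2-1, Lhx6, Lhx8, Sst, Dlx1, Dlx2, Dlx5, Olig2, Emx1, Pax6, Ezh2 and Hox clusters are in the fixed set, of which some items are not reported here. Other genes with values were chosen after their values were seen. The comparison, gene lists and rules were chosen with earlier results of these data known.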

Additional observations from a re-analysis of the deposited data

Results flagged for a closer look

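By edgeR's interaction test over all 12 libraries, the stage change differed between WT and KO at the 7 named regions below. Each had the more negative change in WT. Boc and a second Kcnq1 region, both named above, also differed under both scalings, by -1.84 and -2.17 with depth scaling. Over all 2368 regions read in both genotypes the median of this difference was -0.61 with depth scaling and -0.07 with TMM. The difference (WT minus KO, log2, depth scaling) was -1.21 at Cdkn1c (edgeR adjusted p = 0.0470), where WT changed by 1.69 and KO by 2.89, -0.89 at Lingo1 (edgeR adjusted p = 0.0377) and -1.59 at the Gabbr2 region (edgeR adjusted p = 0.00795). It was -1.87 at Foxp4 (edgeR adjusted p = 6.18e-07) and -2.07 at the Kcnq1 region with Kcnq1ot1 (edgeR adjusted p = 0.000455). It was -1.15 at the Gli2 gene-body region (edgeR adjusted p = 0.0227), where WT changed by -1.92 and KO by -0.77, and -2.34 at the Ebf3 region (edgeR adjusted p = 8.36e-05). With TMM, Foxp4, Kcnq1 and Ebf3 stayed called, and the edgeR adjusted p was 0.314 at Cdkn1c, 0.469 at Lingo1, 0.280 at Gabbr2 and 0.211 at this Gli2 region. Another Gli2 region, chr1:118966201-119004600, was not among the 7 but differed under both scalings. With depth scaling it changed by -0.0006 in WT and 2.66 in KO. The difference was -2.66 (edgeR adjusted p = 2.68e-07), and -2.09 with TMM (edgeR adjusted p = 0.00169).

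Chromosome X, which the tests leave out, held 20.9% of the bases covered by intervals in E12.5 WT replicate 3, against 0.874% to 1.13% in the other 5 WT libraries. It held 18.1% to 24.5% in the 3 E12.5 KO libraries and 0.885% to 5.33% in the 3 E15.5 KO libraries. The part of these differences in the autosomal results, the comparison of WT with KO included, was not tested beyond leaving out single libraries.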

How the results depend on the processing

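Of 688 values for 51 regions named by rule, 614 kept direction and side of the threshold, 42 lost and 10 gained a call, and 22 changed sign. The count of gained regions, 97, was 417 with TMM, 476 with DESeq2, 46 with at least 4 libraries, 47 per covered kb and 53 to 133 leaving out 1 library. The count of lost regions, 1128, was 570, 421, 733 and 122 under these 4 settings, 455 where covered length was within 1.5-fold, 383 against E12.5 replicate 1 alone and 673 to 1558 leaving out 1 library. Firm counts ran from 50 to 132 (gained) and from 356 to 685 (lost) when 1 library was left out, alternatives chosen after seeing the data. Regions listed at E12.5 only numbered 194 when an interval had to cover 50% of the region and 430 to 2621 leaving out 1 library. Those at E15.5 only were 67 with lists of equal length, 9 with the 50% rule, 238 against E12.5 replicate 1 alone and 26 to 57 leaving out 1 library. The stage by genotype count, 158, was 51 with TMM and 60 to 1070 leaving out 1 library, with 420 without E12.5 WT replicate 1.

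The sign changed with TMM and DESeq2 at Emx1 (0.43 and 0.51), Pax6 (0.45 and 0.53), Hoxb1 (0.26 and 0.34), Hoxc4 (0.25 and 0.33) and Hoxd1 (0.41 and 0.49). Per covered kb it changed at Emx1 (0.15), Pax6 (0.17), Hoxb1 (0.013), Wnt3 (0.17) and Grik3 (0.33). Leaving out 1 library gave -0.10 to 0.048 at Emx1, -0.089 to 0.16 at Pax6, -0.28 to 0.00035 at Hoxb1 and -0.12 to 0.11 at Hoxd1. The cause was not tested.

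Whether replicate numbers pair the samples cannot be settled with 3 libraries per stage. Deviations of same-numbered libraries correlated at 0.271, 0.089 and 0.135, and those of differently numbered ones at -0.224 to 0.168. Not every library correlated best with its own number. With the replicate number as a block, 146 regions were gained and 1367 lost (106 and 619 firm), 128 differed by genotype, and Pax6 was at 0.014. At the lower E15.5 depths a region without an interval cannot be told from one below the caller's threshold.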

Other observations

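At several progenitor genes E15.5 replicate 3 held far more of the mark than the other E15.5 libraries; these genes were chosen after their values were seen. Sox2, a neural stem cell factor, held 521, 562 and 469 at E12.5 and 73.2, 140 and 450 at E15.5, and Vax1, a ventral forebrain factor, held 443, 519 and 445, then 106, 113 and 415. Sox1, close kin of Sox2, held 593, 628 and 504, then 154, 119 and 558, so that its stages overlapped. The log2 changes were -1.18 and -1.11 at Sox2 and Vax1 (edgeR adjusted p = 0.0378 and 0.0349), and -1.02 at Sox1 (edgeR adjusted p = 0.0565). With TMM none of the 3 was called.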
